A study of Mus musculus with 12 samples.

Results

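In the mouse cecum, 110 genes were raised 72 h after cauterization and not at 3 h or 12 h. The rule took the brightest probe of each gene name, which had to be well above background on the 3 arrays at 72 h. The mean at 72 h had to lie at least 2 log2 units above the sham control mean, and the means at 3 h and 12 h less than 0.5 above it. Gene names beginning with Col and a digit, and probes without a gene symbol, were dropped, which removed 8 collagen genes and 2 transcripts. The members were 110 of the 37074 gene names measured. With the same names dropped, 547 genes, 1.48% of the 37074, met the background limit and lay at least 2 log2 units above the sham mean at 72 h. The members were 110 of these, and the other 437 passed 0.5 at 3 h or at 12 h. Since the same measured values chose the members, their differences are a description and carry no test.

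RNA of the cecum was measured on Agilent arrays of the SurePrint G3 Mouse GE v2 design with 1 colour, on which the brightness of a spot measures a transcript. There were 12 arrays in 4 groups of 3. The groups were a sham control taken at 0 h after the operation and tissue taken 3, 12 or 72 h from cauterization. Cauterization was a burn of the serosa with bipolar forceps. No sham was taken at 3, 12 or 72 h. Effects of the burn therefore cannot be told apart from those of the operation and the time since it. The methods name C57BL/6 mice, and an age is not given in the sources used here. The labels call the mice male. Against that label, Xist, which females express, passed the background limit on 12 of 12 arrays, the Y-linked Ddx3y and Eif2s3y did so on 0, and Uty on 1. Of the 6 probes of the Y-linked Kdm5d, 1 passed it on 12 arrays and 5 on 0.

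Values are log2 of the background-corrected intensity, less the 75th percentile of each array, so 0 marks that percentile and 1 unit is a doubling. They are set side by side within a probe and not between probes. The median over all genes at 72 h was -0.15 against sham. All of the 13 markers of colon epithelium and the 8 of visceral smooth muscle were above background on every array of every group. Of the 8 pancreas markers, 5 were above background on no array at 72 h (Cpa1, Prss2, Pnlip, Amy2b and Try4), and so were Pgr and Amh among the 10 of uterus and ovary and Myh1 among the 12 of skeletal muscle. On all 3 arrays at 72 h, 3 pancreas markers, 8 of uterus and ovary and 11 of skeletal muscle were above background, against 3, 8 and 9 in sham. The 72 h arrays shared their slide with 1 array at 12 h, and the other 8 arrays lay on another slide. In bulk tissue, fewer cells of a type and less RNA per cell cannot be told apart.

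An injured serosa is covered again by mesothelial cells, and scar or adhesion tissue forms where fibroblasts and myofibroblasts lay down matrix. Collagen chains are hydroxylated and folded in the endoplasmic reticulum, secreted, trimmed by proteases and then crosslinked by lysyl oxidases outside the cell. Macrophages clear debris at the same time and turn from an inflammatory to a repair state.

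Over the members, the median difference from sham was 2.41 at 72 h, where it ranged from 2.0 to 5.46, after -0.45 at 3 h and -0.20 at 12 h. With the 25 members that had no sham array above background set at their bound, it was 2.25. The 3 arrays at 72 h lay above all 9 other arrays for 106 of the 110, against 5.21% of all genes. By limma, 106 of the 110 were called higher at 72 h, which took more than a 2-fold change with an adjusted p below 0.05, against 4.5% of all genes. By the same measure 0 of the 110 were called higher at 3 h and 0 at 12 h, where 3.14% and 3.95% of all genes were, and 6 and 8 were called lower, against 4.33% and 5.33% of all genes. These counts follow from the rule, so nothing is read from them. The 4 members that were not called were Tmeff2, Slc9b2, Agtr2 and Mrap. The 4 with an overlap were Tmeff2, Mrap, Sult5a1 and 1110006E14Rik.

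**Figure D1:**
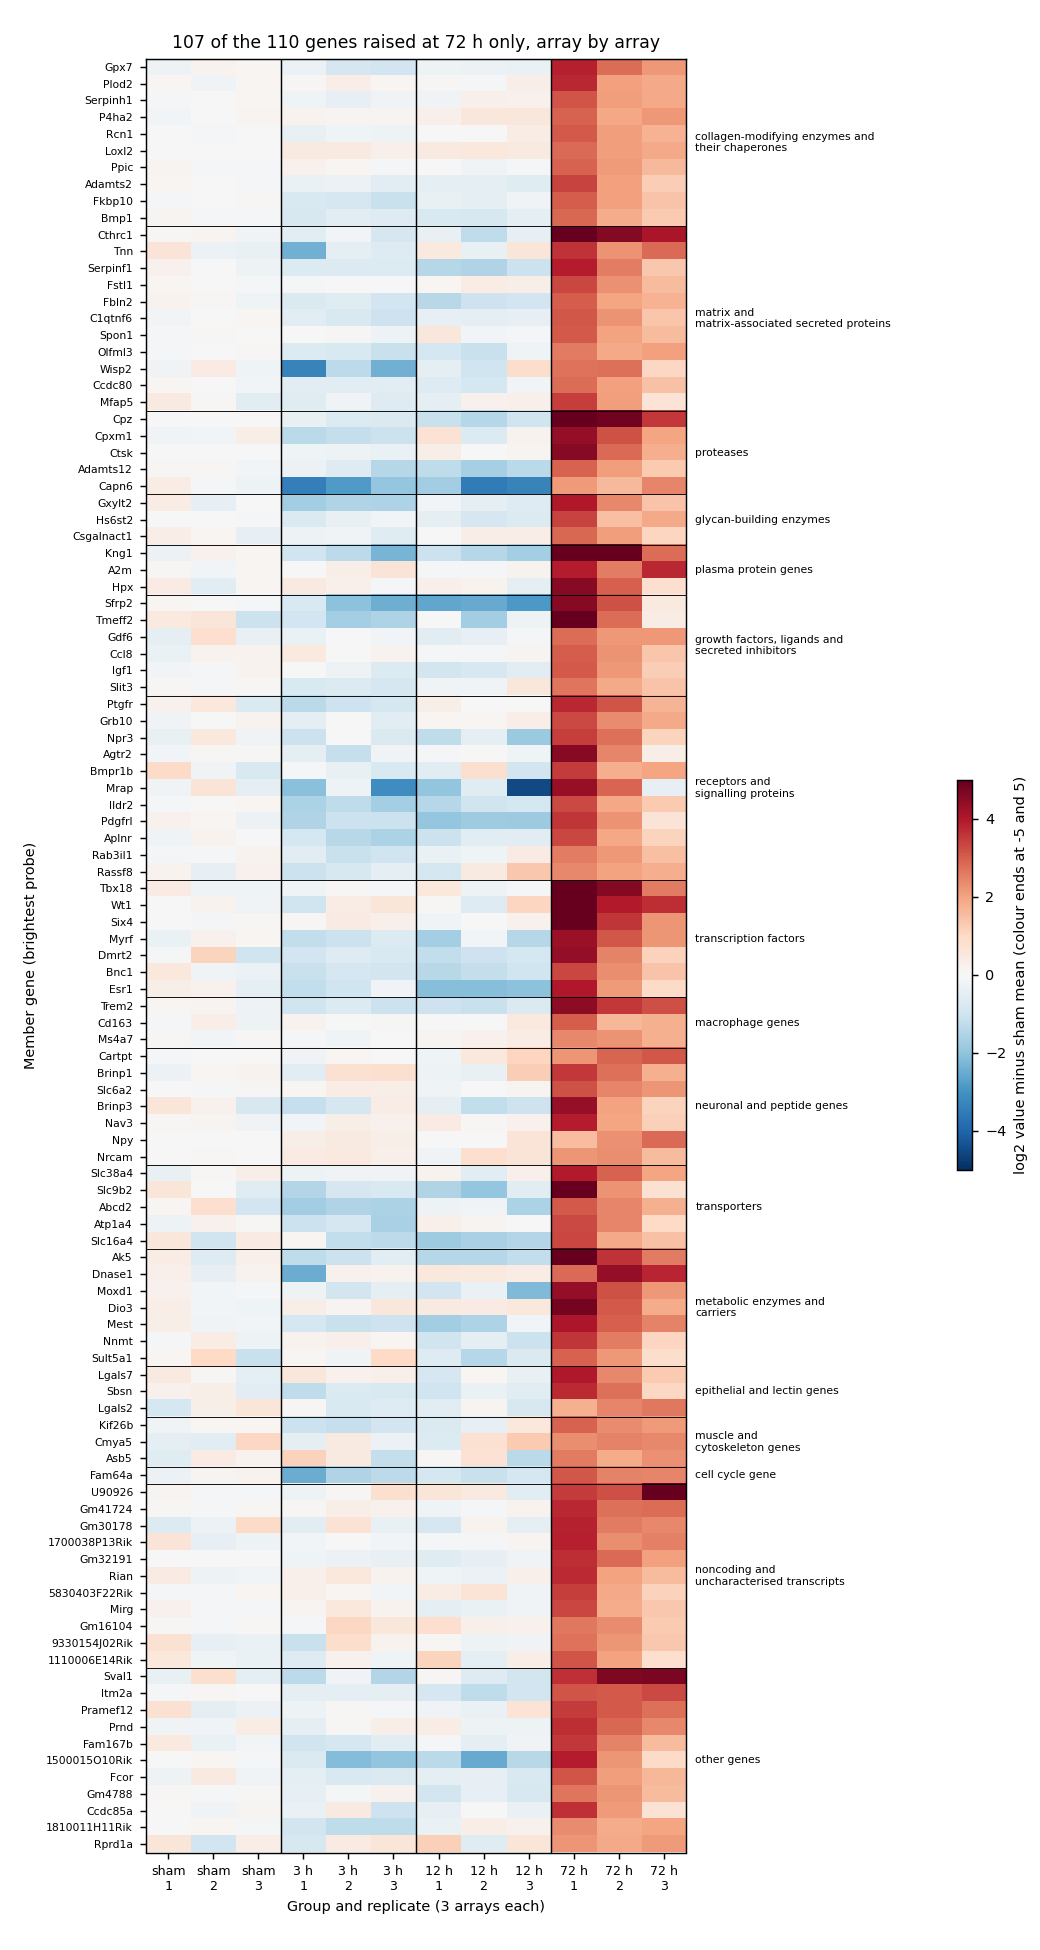
Rows are 107 of the 110 members grouped by role (3 not drawn), columns are the 12 arrays (group and replicate), and colour is the log2 value minus the mean of the 3 sham arrays, ending at -5 and 5. The sham, 3 h and 12 h columns stay pale or blue, and the 72 h columns are red, with replicate 1 the highest for 96 of the 107.

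The enzymes that modify collagen and the chaperones that handle it formed a group of 10 members, with differences at 72 h between 2.0 and 2.94. Serpinh1 encodes the collagen chaperone HSP47. Its values at 72 h were 5.38, 4.31 and 4.11. They were 2.17, 2.21 and 2.32 in sham, 2.03, 1.83 and 2.07 at 3 h, and 2.04, 2.5 and 2.45 at 12 h. All 72 h arrays stood above the other 9, and the difference was 2.37, or 5.16-fold. P4ha2, a subunit of prolyl 4-hydroxylase, lay between -1.09 and -0.37 on the 9 earlier arrays and at 2.02, 0.98 and 1.22 at 72 h. Plod2, a lysyl hydroxylase of collagen telopeptides, was at -1.85, -2.11 and -1.85 in sham and at 1.82, 0.11 and -0.03 at 72 h. The highest of the earlier arrays for Plod2 was -1.60, so its groups did not overlap.

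Fkbp10, a collagen prolyl isomerase of the endoplasmic reticulum, differed by 2.17 and Ppic, the cyclophilin C gene, by 2.23. Rcn1, a calcium-binding protein of the endoplasmic reticulum, differed by 2.30, and Gpx7, a peroxidase that aids disulfide formation there, by 2.94. Loxl2, which crosslinks collagen outside the cell, was at 1.39, 1.40 and 1.44 in sham, between 1.66 and 1.94 at 3 h and 12 h, and at 4.26, 3.5 and 3.30 at 72 h. Adamts2 and Bmp1 cut the propeptides from collagen chains, and they differed by 2.22 and 2.0. All 10 genes were highest in replicate 1 at 72 h.

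Of these 10, 4 had a promoter sequence in the RefSeq table of GRCm38.p6, and the 250 bases before the start of each are shown. The rule chose these genes for a shared course, so their moving together is no separate result. Capitals mark GGGCGG (the GC box) and ACGTG (the core of the hypoxia response element) on either strand, and the motifs do not overlap here. The regions are chr7:99353240-99353489 on the minus strand for Serpinh1, chr11:54100674-54100923 on the plus strand for P4ha2, chr4:108406714-108406963 on the minus strand for Gpx7 and chr11:50601835-50602084 on the plus strand for Adamts2.
Serpinh1: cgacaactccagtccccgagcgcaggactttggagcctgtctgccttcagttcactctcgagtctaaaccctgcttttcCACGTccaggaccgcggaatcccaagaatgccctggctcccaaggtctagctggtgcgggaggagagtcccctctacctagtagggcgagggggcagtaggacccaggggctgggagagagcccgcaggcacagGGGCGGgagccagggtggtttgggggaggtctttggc
P4ha2: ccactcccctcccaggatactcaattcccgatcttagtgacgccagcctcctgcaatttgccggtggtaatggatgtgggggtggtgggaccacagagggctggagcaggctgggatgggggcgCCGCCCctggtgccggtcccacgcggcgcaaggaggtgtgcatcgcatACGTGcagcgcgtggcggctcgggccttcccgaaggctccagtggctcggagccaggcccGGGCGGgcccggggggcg
Gpx7: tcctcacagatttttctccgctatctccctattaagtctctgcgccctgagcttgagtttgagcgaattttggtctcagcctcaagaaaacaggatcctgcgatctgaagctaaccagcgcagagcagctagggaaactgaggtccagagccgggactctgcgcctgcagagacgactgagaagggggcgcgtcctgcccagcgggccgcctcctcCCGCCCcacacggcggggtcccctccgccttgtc
Adamts2: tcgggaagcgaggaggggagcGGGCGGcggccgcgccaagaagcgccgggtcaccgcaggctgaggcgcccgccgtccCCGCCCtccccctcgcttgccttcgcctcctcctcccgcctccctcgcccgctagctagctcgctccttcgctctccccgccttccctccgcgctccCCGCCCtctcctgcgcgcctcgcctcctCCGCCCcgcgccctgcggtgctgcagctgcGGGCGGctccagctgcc

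The GC box was in all 4 of these promoters. It was in 33 of the 70 member promoters in the table (47.1%) and in 32.9% of all 27018 promoters of the same length. ACGTG was in the promoters of Serpinh1 and P4ha2, in 15.7% of the member promoters and in 16.6% of all. Of 7 further motifs described here, searched on both strands, CCAAT was in 48.6% of the member promoters and 34.5% of all and CANNTG (the E-box) in 65.7% and 66.1%. TGANTCA (AP-1) was in 8.57% and 6.87%, GGAATG (TEAD) in 8.57% and 12.6%, TGTGGT (RUNX) in 7.14% and 14.2%, GAANNTTC (the heat shock element) in 12.9% and 6.78%, and the CArG box in 2.86% and 1.40%. The median GC content was 56.0% for the member promoters and 52.0% for all. For the 4 windows shown it was 66.8% (60.4% to 78.0%), so a motif of G and C letters is more likely there. These matches describe the letters of the windows and not sites of binding.

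Matrix and matrix-associated secreted proteins made up 11 members. Cthrc1, a secreted collagen triple helix repeat protein of repairing arteries and scars, was at -3.84, -3.75 and -4.09 in sham, at -4.40, -4.03 and -4.75 at 3 h, at -4.25, -5.15 and -4.29 at 12 h, and at 2.49, 0.71 and 0.19 at 72 h. The lowest 72 h array lay 3.94 above the highest of the other arrays, the widest gap of any member, and the difference from sham was 5.02, or 32.5-fold. Its probe lies at chr15:38918272-38918331 of mm9.

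Tnn (tenascin-W) differed by 2.89 and was above background on 1 of 3 sham arrays. Serpinf1, the antiangiogenic factor PEDF, was at 0.24, 0.04 and -0.21 in sham, between -1.48 and -1.07 at 12 h and at 3.93, 2.56 and 1.38 at 72 h. Fstl1, a secreted glycoprotein that binds BMPs, was between 2.25 and 2.71 on the 9 earlier arrays and at 5.68, 4.64 and 3.95 at 72 h. Fbln2, a fibulin of elastic fibres and basement membranes, differed by -1.13 at 12 h and by 2.25 at 72 h. The other members of the group were C1qtnf6 (2.23), Spon1 (2.21), Olfml3 (2.18), Wisp2 (2.15), Ccdc80 (2.10) and Mfap5, a microfibril protein (2.07). Wisp2, a matricellular protein, was above background on all sham arrays and on 0 at 3 h.

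Among 5 proteases, Cpz, a carboxypeptidase that binds Wnt proteins, was at -3.78, -3.80 and -3.77 in sham and at 1.55, 1.04 and -0.23 at 72 h, a difference of 4.57. Its 3 arrays at 12 h were at -4.89, -5.19 and -4.77, all below sham. Cpxm1, a carboxypeptidase-like protein, differed by 3.19. Ctsk, the collagen-degrading cathepsin K of osteoclasts and macrophages, was at -0.36, -0.35 and -0.41 in sham, at -0.09, -0.40 and -0.23 at 12 h and at 4.19, 2.46 and 1.45 at 72 h, which is 8.40-fold over sham. Adamts12, a metalloproteinase, differed by 2.12 and Capn6, an inactive calpain that binds microtubules, by 2.06. The glycan-building enzymes Gxylt2, Hs6st2 and Csgalnact1 differed by 2.61, 2.27 and 2.02.

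The summed level of the fibroblast markers was also higher at 72 h. The summed linear level of the 8 fibroblast markers, in multiples of the 75th percentile, was 51.9 to 61.9 in sham, 45.1 to 48.6 at 3 h, 46.8 to 51.1 at 12 h and 97.4 to 158 at 72 h, and all 8 were above background on every sham and 72 h array. By limma, 4 of the 8 were called higher at 72 h and 0 with the slide as a block, and their median difference was 0.98. The part of cell numbers in the matrix genes was not tested. The 8 collagen genes dropped by name (Col1a1, Col1a2, Col2a1, Col3a1, Col5a1, Col5a3, Col11a1 and Col24a1, of 44 collagen chain genes on the array) differed by 2.01 to 3.22 at 72 h and by -1.86 to -0.42 at 12 h.

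The transcription factors were 7 members, and 5 of them had no sham array above background. Wt1, a zinc finger factor of mesothelium, was at -3.0, -2.85 and -3.21 in sham, at -4.01, -2.66 and -2.41 at 3 h, at -2.97, -3.65 and -1.94 at 12 h and at 2.51, 0.94 and 0.66 at 72 h. All 72 h arrays stood above the rest by at least 2.60, and the difference was 4.39, or 21.0-fold. Its probe lies at chr2:105013656-105013715 of mm9, and that of the member Rcn1 starts 213552 bases from it.

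Tbx18, a T-box factor of the epicardium and of ureter mesenchyme, was not well above background on any of the 9 earlier arrays and read -1.21, -2.82 and -4.81 at 72 h. Set against the lowest level called above background on the sham arrays, it was at least 6.02-fold higher. By the same bound, Myrf, which regulates myelin genes, was at least 5.94-fold higher. Six4, a homeodomain factor, was at least 2.77-fold higher, Dmrt2 at least 2.71-fold and Bnc1, a zinc finger factor of mesothelium and squamous epithelium, at least 2.60-fold. Esr1, the estrogen receptor α gene, lay at -2.93, -3.02 and -3.73 in sham, at -5.36, -5.37 and -5.29 at 12 h and at 0.76, -1.08 and -2.25 at 72 h. It was above sham at 72 h and below it at 12 h on every array.

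The mesothelial genes Upk3b and Lrrn4 had another course. Upk3b, a uroplakin of mesothelium, was at -3.35, -3.02 and -3.31 in sham, above background on 0 arrays at 3 h and 12 h, and back at -2.03, -3.38 and -4.23 at 72 h. Lrrn4 was likewise above background on 0 arrays at 3 h and 12 h and at -1.46, -2.37 and -3.73 at 72 h, against -3.40, -3.18 and -3.60 in sham. The summed level of the 11 mesothelial markers, which include Wt1 and Bnc1, was 156 to 186 in sham, 230 to 256 at 3 h, 157 to 198 at 12 h and 113 to 151 at 72 h. Wt1, Bnc1, Upk3b and Lrrn4 each read below 0 in sham, so brighter markers of the list carried this sum. The sum of the 13 colon epithelium markers was likewise highest at 3 h (1590 to 1733) and lowest at 72 h (618 to 844). Which cells the mesothelial sum came from was not tested. Of the 9 markers that were no members, 2 rose and 1 fell at 72 h by limma, with a median of 0.03.

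**Figure D2:**
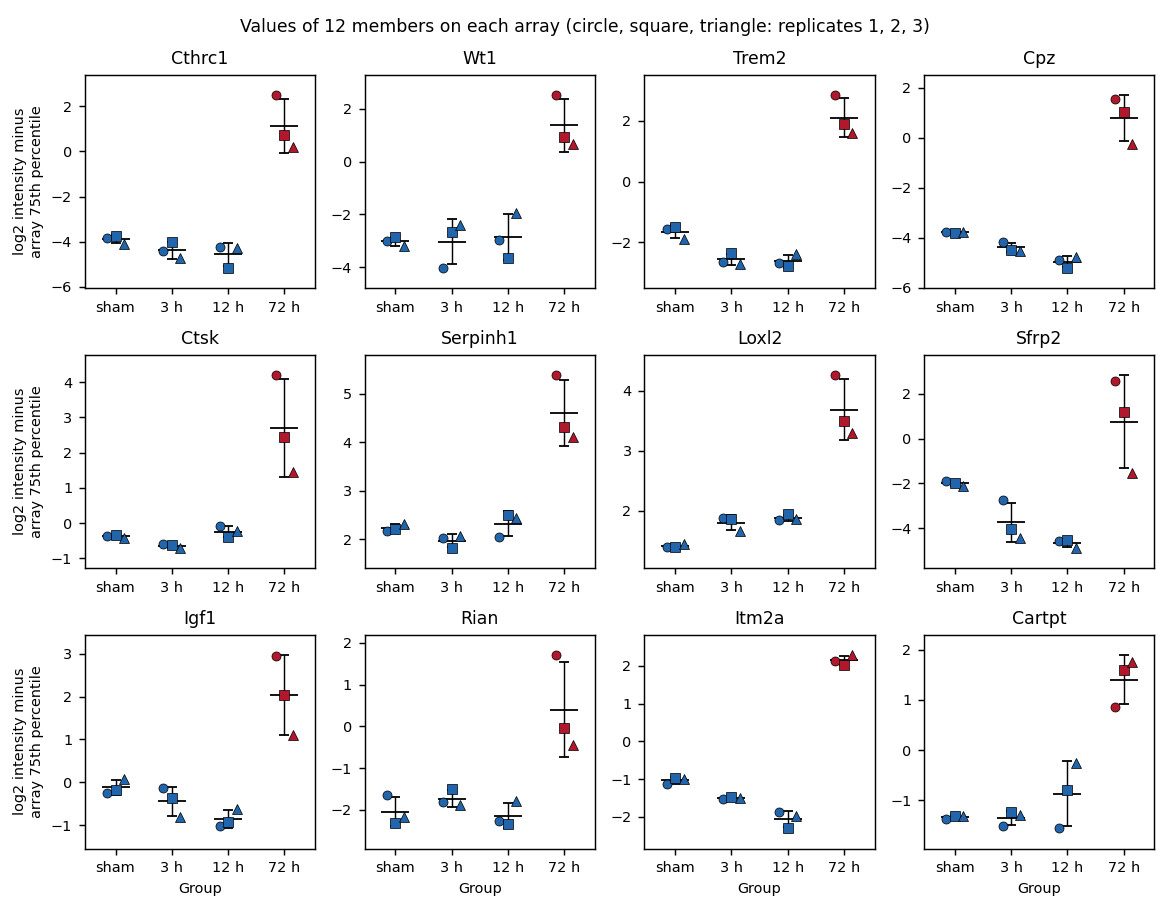
Each panel shows the log2 value (log2 intensity, with 0 at the 75th percentile of the array) of 1 member on the 12 arrays, with symbols for replicates and bars for the group mean ± SD (n = 3). The red points at 72 h stand above the blue points of the other groups in all 12 panels, and Sfrp2 lies lowest at 12 h.

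Growth factors and secreted inhibitors were 7 members. Sfrp2, a secreted Wnt modulator, was at -1.91, -1.96 and -2.11 in sham, at -4.58, -4.53 and -4.86 at 12 h and at 2.55, 1.21 and -1.52 at 72 h. Its lowest 72 h array lay 0.39 above the highest sham array. Igf1, a growth factor made by fibroblasts and repair macrophages, was at -0.24, -0.19 and 0.07 in sham and at 2.96, 2.04 and 1.09 at 72 h, a difference of 2.15. Slit3, an axon guidance ligand, differed by 2.0, Ccl8, a monocyte chemokine, by 2.22, and Gdf6, a BMP family ligand with no sham array above background, was at least 1.43-fold higher. Tmeff2, a membrane protein with follistatin domains, spread from -5.38 to -0.78 at 72 h and overlapped with sham.

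The receptors and signalling proteins were 11 members. Ptgfr, the receptor of prostaglandin F2α, was at least 4.0-fold higher and Bmpr1b, a BMP receptor, at least 2.26-fold, since neither was above background on a sham array. Npr3, the clearance receptor of natriuretic peptides, differed by 2.45. Aplnr, the apelin receptor of endothelium, differed by -1.29 at 3 h and by 2.12 at 72 h, and Pdgfrl, a PDGF receptor-like protein, by -1.85 at 12 h and 2.15 at 72 h. Agtr2, the type 2 angiotensin receptor, spread from -4.96 to -0.70 at 72 h. Grb10, an adaptor that inhibits insulin and IGF receptors, differed by 2.53. Mrap, an accessory protein of the melanocortin receptor that fat tissue also makes, spread from -3.49 to 1.27 at 72 h and from -3.58 to -2.46 in sham.

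The 3 macrophage members were Trem2, Cd163 and Ms4a7. Trem2, a lipid-sensing receptor of macrophages, was at -1.56, -1.50 and -1.89 in sham, at -2.63, -2.35 and -2.71 at 3 h, at -2.69, -2.78 and -2.37 at 12 h and at 2.84, 1.88 and 1.59 at 72 h, which is 13.5-fold over sham. The earlier arrays were below sham without overlap and the 72 h arrays above it. Cd163, the haemoglobin scavenger receptor, differed by 2.16, and Ms4a7 was at 3.72, 3.57 and 3.13 at 72 h against 1.22 to 1.41 in sham. The 10 macrophage markers, which hold 1 member, summed to 82.9 to 98.6 in sham, 69.5 to 163 at 3 h, 125 to 143 at 12 h and 272 to 285 at 72 h. Their part in these values was not tested.

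The 3 plasma protein members included the gene with the largest difference. Kng1, the kininogen from which bradykinin is released, was at -5.53, -5.04 and -5.14 in sham (above background on 2 arrays), on no array above background at 3 h and 12 h, and at 2.53, 0.59 and -2.45 at 72 h. Its difference was 5.46, and its 72 h arrays spread over 4.98 units, the widest spread of any member. A2m, a protease inhibitor, was at least 2.52-fold higher, and Hpx, the haem scavenger hemopexin, at least 4.18-fold, with 0 sham arrays above background for either. Among liver proteins that were no members, Kng2, the neighbour of Kng1, was above background on 2 arrays at 72 h (-0.58 and -2.63) and on none in sham. Kng1 and Kng2 are close copies, so the probes may share signal, which was not tested. Ahsg read 0.95, -1.28 and -6.78 at 72 h. Apoa1, Fgb and Fgg were above background on 0 arrays in sham and at 72 h, and Alb differed by 0.95. These liver genes were picked after their values were seen.

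Imprinted genes, of which a single parental copy is active, made up 6 members in 4 chromosomal regions. Rian and Mirg are noncoding RNAs and Dio3 is the thyroid hormone inactivating deiodinase of the same imprinted domain on chromosome 12. Their probes start at 110899840, 110987569 and 111518792 of mm9, and that of the member 1110006E14Rik starts 65029 bases before Rian. Rian was at -1.65, -2.30 and -2.18 in sham, at -2.27, -2.33 and -1.79 at 12 h and at 1.70, -0.04 and -0.45 at 72 h. Mirg differed by 2.17 and Dio3 by 3.23, and both were also highest in replicate 1 at 72 h.

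Meg3, in the same domain, was at 1.91, 1.31 and 1.45 in sham, between -0.28 and 0.51 at 12 h and at 4.21, 2.79 and 1.89 at 72 h, a difference of 1.41, which missed the limit of 2. Dlk1 differed by -0.09. Elsewhere in the genome, Mest differed by 3.17, Slc38a4, an amino acid transporter, by 2.96, and Grb10 by 2.53. H19, an imprinted noncoding RNA, differed by 4.78 at 72 h and by 1.01 at 12 h, so it was no member, while its neighbour Igf2 differed by -0.94. This list of 26 imprinted genes was also put together after values were seen, so it was not tested. The 20 genes of it that were no members had a median difference of -0.10 at 72 h, against -0.15 over all genes.

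Neuronal and peptide genes were 7 members, and 2 of them went against the order of the arrays seen in most. Cartpt, the precursor of the CART peptide of enteric neurons, was at -1.38, -1.31 and -1.31 in sham, at -1.55, -0.80 and -0.25 at 12 h and at 0.86, 1.59 and 1.76 at 72 h. Npy, neuropeptide Y, was between -4.35 and -3.65 on the 9 earlier arrays, and at -2.78, -2.02 and -1.48 at 72 h. Both were lowest in replicate 1 at 72 h. Slc6a2, the noradrenaline transporter, was above background on the 72 h arrays alone and at least 1.25-fold higher than sham. Nav3 and Nrcam, genes of neurite growth and adhesion, differed by 2.36 and 2.04, and Brinp1 and Brinp3 were at least 2.08-fold and 2.78-fold higher.

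The remaining members belonged to smaller groups. Ak5, an adenylate kinase, was at least 8.80-fold higher, and Moxd1, a monooxygenase related to dopamine β-hydroxylase, differed by 3.24. Dnase1, a secreted nuclease, was at -2.44, -0.86 and -1.44 at 72 h and between -7.76 and -4.73 on the other arrays. Fam64a, a gene of mitosis, differed by -1.77 at 3 h and 2.68 at 72 h. Itm2a, an integral membrane protein, was nearly level on the 72 h arrays, at 2.12, 2.04 and 2.28, against -1.13, -0.96 and -1.0 in sham. Sval1 (seminal vesicle antigen-like 1) was at -3.86, -2.71 and -3.95 in sham and at 0.13, 1.15 and 1.18 at 72 h, a difference of 4.33. U90926, a noncoding transcript, was at least 11.6-fold higher, the largest of the 25 bounds, of which the smallest was 1.25-fold. Pramef12 was at least 2.26-fold higher.

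The course before 72 h differed among members. At 3 h and 12 h, 50 of the 110 stayed within 0.5 of sham in either direction. Another 34 read more than 1 below sham at 3 h or 12 h, 9 of them at both times. Since 23 members were above background on none of the 9 earlier arrays, 15 of the 50 and 6 of the 34 had no measured course there. Over the other 87 members the median was -0.53 at 3 h and -0.25 at 12 h. The lowest readings at 12 h were those of Capn6, Sfrp2 (-2.67), Mrap (-2.36), Esr1 (-2.11) and Pdgfrl (-1.85). Capn6 was above background on all 3 sham and all 3 72 h arrays and on 0 in between, so its fall has no exact size. The collagen-modifying enzymes, all above background on every array, had a median of 0.01 at 12 h, and the macrophage genes one of 0.17.

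**Figure D3:**
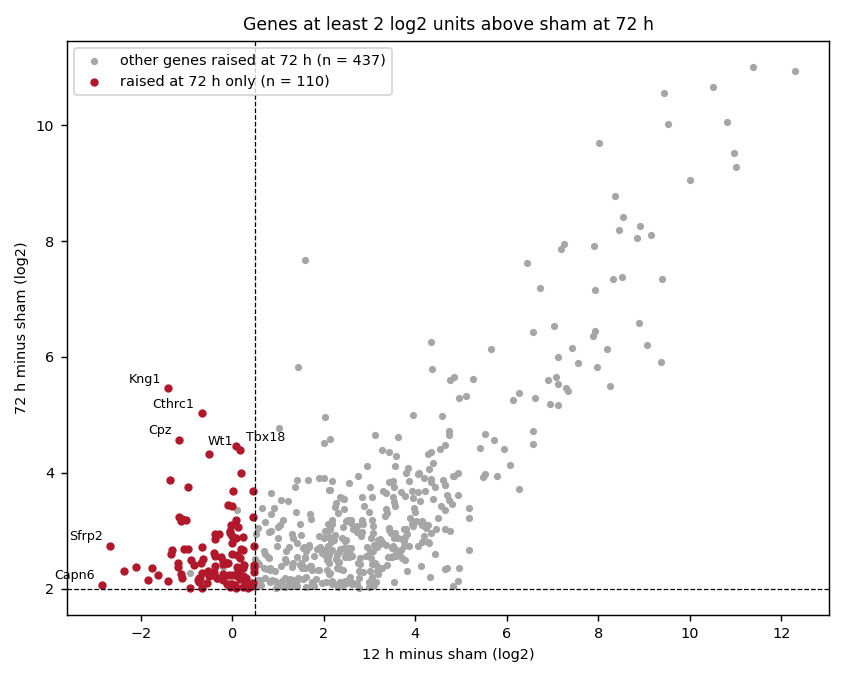
The horizontal axis is the difference from sham at 12 h and the vertical axis that at 72 h (log2). Shown are the 547 genes above background and at least 2 above sham at 72 h, with the same names dropped. The 110 members (red) lie left of the dashed limit of 0.5, and grey points left of that limit passed 0.5 at 3 h.

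The 3 arrays at 72 h were ordered alike by most members. Replicate 1 was the highest for 99 of the 110 and replicate 3 the lowest for 88, with median differences from the sham mean of 3.39, 2.33 and 1.76 for replicates 1, 2 and 3. The median SD of the members was 0.87 at 72 h and 0.24 in sham, 0.24 at 3 h and 0.27 at 12 h. Replicate 1 was the highest for 90.0% of the members, for 41.2% of the other 437 genes raised at 72 h and for 33.4% of the 22621 genes above background on the 3 arrays. The median SD at 72 h was 0.49 in the other 437 and 0.16 in the 22621.

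Several marker lists had the same order of arrays at 72 h. In replicates 1, 2 and 3, the summed level was 158, 121 and 97.4 for the 8 fibroblast markers, 197, 95.5 and 21.3 for the 8 fat markers (36.4 to 61.0 in sham) and 24.5, 16 and 11.1 for the 7 endothelial markers (10.3 to 11.1 in sham). It was 4.83, 1.82 and 1.70 for the 6 markers of Schwann cells and enteric glia (1.52 to 1.81 in sham). It was 7.69, 4.43 and 2.89 for the 8 of cartilage and bone (1.07 to 1.14 in sham). These include the dropped collagen Col2a1, and Acan, Ibsp, Matn1 and Dmp1 among them were above background on 0 arrays at 72 h. The 8 markers of smooth muscle ran the other way, at 36.5, 46.5 and 60.7, below the 155 to 180 of sham. So did the sum of the 11 mesothelial markers, at 113, 144 and 151, though Wt1, Bnc1, Upk3b and Lrrn4 among them were highest in replicate 1. The 4 of lymphatic endothelium were at 7.89, 10.4 and 18 (11.2 to 13.4 in sham). The 13 of colon epithelium were at 618, 844 and 792 against 1449 to 1541 in sham. These sums weigh the brightest markers most. By limma at 72 h, 2 endothelial markers and 2 of cartilage and bone were called higher, 0 of fat and 0 of glia. In the glial list 2 were called lower. The median differences were 0.44 for endothelium, -0.095 for cartilage and bone, 0.01 for fat and -0.03 for glia. With the slide as a block, 0 were called higher in each. The part of the marker lists in the members' values was not tested.

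**Figure D4:**
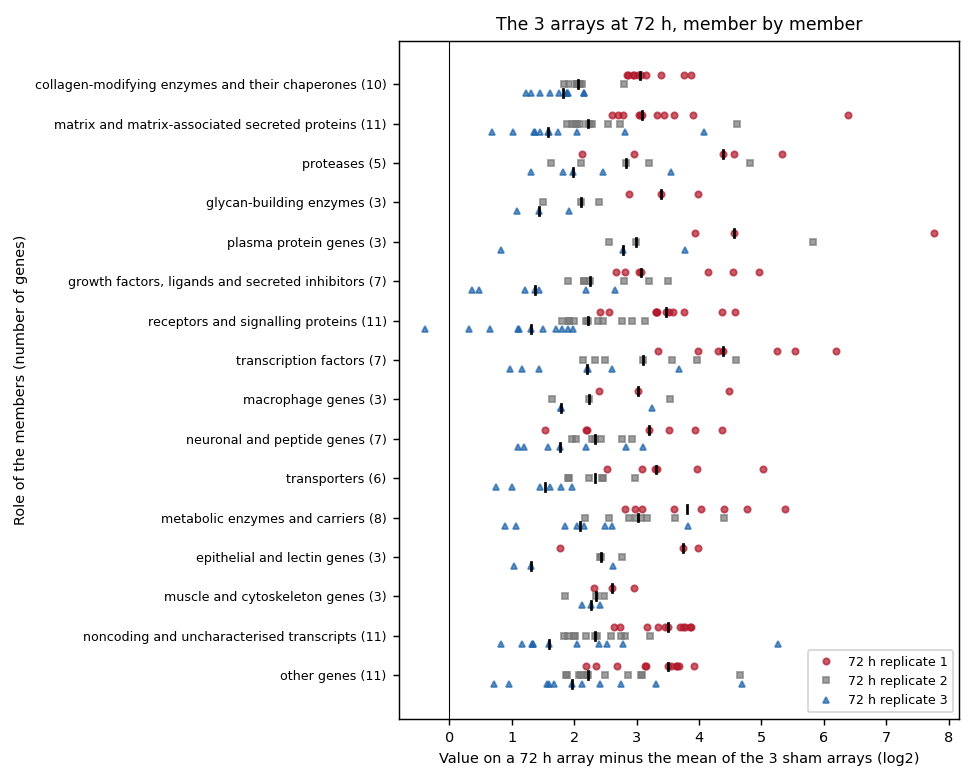
Each point is 1 member on 1 array at 72 h, as the log2 value minus the mean of the 3 sham arrays, by role (1 cell cycle gene not drawn). Black ticks are medians. Replicate 1 lies to the right of replicates 2 and 3 in most roles, with an overall median of 3.39 against 2.33 and 1.76.

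The number of members depended on these arrays. Without replicate 1 at 72 h, 47 genes met the rule, all of them among the 110, and without replicate 3, 197 did, of which 108 were among the 110. At the edges, Bmp1 (2.0039), Slit3 (2.0035) and 1110006E14Rik (2.0009) lay just inside the limit of 2 at 72 h, and Adamts16, Dlgap2 and Kdelr3 just outside it at 1.9963, 1.994 and 1.9854. Loxl2 (0.47), Cmya5 (0.47) and P4ha2 (0.47) lay just inside the limit at 12 h, and Chl1 (0.50), Pla2g2a (0.51) and Cmtm3 (0.52) just outside it. At 3 h, Gm16104 (0.49), Loxl2 (0.39) and Nrcam (0.38) were the nearest inside and Apoc1 (0.61), Dpf1 (0.68) and Krt23 (0.78) the nearest outside. Another 25 genes passed the limits but were not above background on all 3 arrays at 72 h. Of the 110, 63 were above background on all 12 arrays and 23 on none of the 9 earlier arrays.

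With the slide as a block in the limma fit, the median difference at 72 h was 2.36, all 110 stayed above 0 and 75 at or above 2. Within the second slide, the 72 h mean lay above the 12 h array for all members, by 0.73 to 7.16 and by a median of 2.87, as it did over all 12 h arrays. This within-slide value rests on 1 array at 12 h, which the rule had also used. The signs in both comparisons largely follow from the rule, so nothing is read from them.

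Other probes of the same genes gave a further reading of the same RNA. The array carried 87 further probes for 56 members, of which 46, for 32 members, were above background on the 3 arrays at 72 h. Another 25 were above background on no array at 72 h. Of the 18 above background on all 12 arrays, 12 differed by at least 1 at 72 h, with a median of 1.93. Of the 46, which were taken for being above background at 72 h, those below 0 were probes of Kif26b (-0.37), Rab3il1 (-0.35) and Fstl1 (-0.27), and a probe of Igf1 differed by 0.12, while other probes of these genes differed by 2.53, 1.94, 2.46 and 1.37. The further probe of Wt1 differed by 1.77. A further probe of Fcor, a FOXO1 corepressor of fat, was 2.89 above sham at 12 h, so it would have failed the rule.

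**Figure D5:**
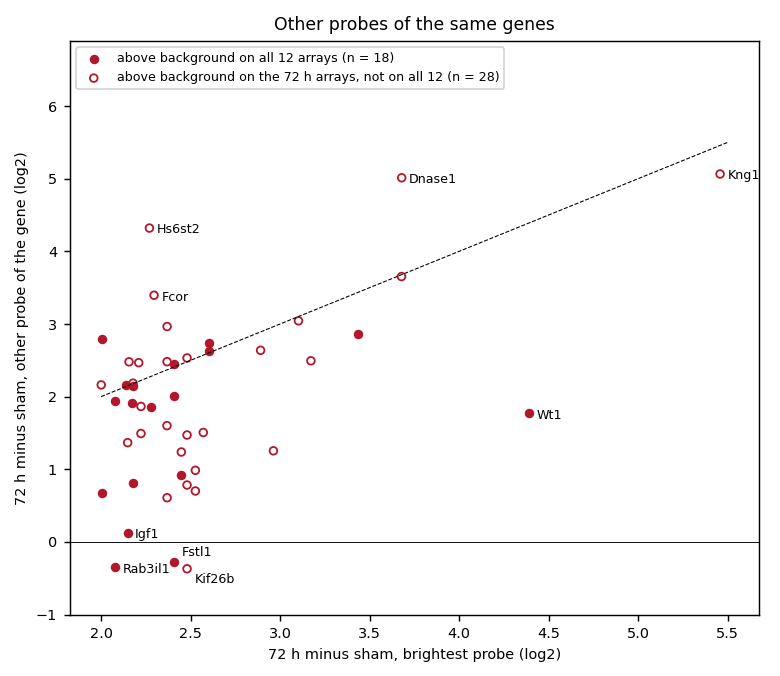
The horizontal axis is the difference of a member's brightest probe (72 h minus sham, log2) and the vertical axis that of another probe of the gene, for the 46 probes above background at 72 h. The dashed line marks equal values, and 3 of the 46 lie below 0.

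Genes of the same pathways that were no members were tested with limma over all probes, in 16 lists. A gene was counted if it passed the threshold given above, which 4.5% and 4.4% of all genes passed at 72 h. Of the 31 collagen processing and crosslinking genes, 7 were members, and 16 of the other 24 rose at 72 h. Lox, the lysyl oxidase, was at 3.89, 2.43 and 2.30 at 72 h, against -2.51, -3.23 and -3.15 in sham, -2.49, -2.28 and -2.21 at 3 h, and -1.50, -1.88 and -1.18 at 12 h. It rose by 5.83 ± 0.39 (SE, adjusted p = 1.94e-05 by limma). P4ha1 rose by 1.94 and Loxl1 by 1.88. With the slide as a block, 2 genes of this list were called higher, and Loxl1 was at 1.53 (limma adjusted p = 0.144).

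Of the 30 matricellular genes, 4 were members (Cthrc1, Tnn, Fbln2 and Wisp2), and 13 of the other 26 rose at 72 h. Wisp1 rose by 3.10 ± 0.17 (SE), Spp1 (osteopontin) by 4.40 and Thbs1 by 3.42, and Thbs1 was already 3.75 above sham at 3 h. Of the 45 matrix proteases and inhibitors, 1 was a member (Adamts12), and 18 of the other 44 rose, with Timp1 (6.26), Mmp8 (5.19) and Mmp12 (4.96) ahead. In the elastic fibre, microfibril and proteoglycan list, 10 of 39 rose, among them Emilin2 (4.40) and Vcan (3.03). With members left out, the median at 72 h was 1.25 for collagen processing, 1.23 for matricellular genes, 1.04 for proteases and 0.56 for the elastic fibre list, against -0.15 over all genes. In these 4 lists 0, 0, 1 and 2 genes fell. At 3 h, 1, 5, 13 and 1 of their genes that were no members were called higher, and at 12 h 2, 7, 12 and 2. Of all genes, 3.14% and 3.95% were. Timp1 and Mmp8 were 3.16 and 6.97 above sham at 3 h, so their rise was not confined to 72 h. With the slide as a block, 10, 9 and 3 genes were called higher in the last 3 lists, and Mmp8 was not.

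In the signalling lists fewer genes passed. Of 41 TGF-β and BMP family genes that were no members, 7 rose, with Chrdl2 (4.12), Inhba (3.94) and Bmper (3.51) ahead. Of 46 Wnt genes, 8 rose, among them Frzb (2.45), Sfrp1 (1.97) and Rspo1 (1.48). Rspo2 was called lower, a call that was lost in 10 of 22 alternatives. Of 41 growth factor and receptor genes of mesenchyme, 6 rose, led by Il11 (5.29), Igfbp5 (1.95) and Igfbp4 (1.69), and of 62 transcription factors 7 rose, among them Lhx9 (2.93), Snai1 (2.07) and Meox2 (1.92). In the same lists 2, 2, 2 and 5 genes fell. At 3 h, 4, 1, 1 and 4 of their genes were called higher, and at 12 h 7, 0, 2 and 4. Il11 was 4.61 above sham at 3 h. The slide as a block left 3, 1, 4 and 2 genes called higher, without Chrdl2, Bmper, Frzb, Sfrp1, Rspo1, Igfbp4, Lhx9 and Meox2. Meox2 was also not called by limma without any 1 of the 3 sham arrays (1.88 to 1.94) or without replicate 2 at 72 h (1.85).

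Among 35 myofibroblast and contractile genes, of which none was a member, 6 rose and 10 fell. Myh11, the smooth muscle myosin, fell by 2.30, S100a4 rose by 2.32, and Lrrc15, above background on 2 of 3 arrays at 72 h and on 0 in sham, was at least 4.57-fold higher. The limma call of Lrrc15 was lost in 8 of 22 alternatives, among them without any 1 of the sham arrays (adjusted p = 0.0504 to 0.0612) and without replicate 1 or 2 at 72 h (0.0613 and 0.0642). Of 27 mesothelial genes 11 rose, among them Prg4 (5.79), Slpi (3.67) and Krt14 (2.99). Of 25 macrophage repair genes 13 rose, led by Arg1, which had 0 sham arrays above background and was at least 298-fold higher. Of 54 axon guidance genes 6 rose, with Chl1 at 2.51 and Slit2, a relative of the member Slit3, at 1.91, though the mean of all probes of Slit2 was 0.16. In the last 3 lists 2 genes each fell. In the order given, 0, 5, 7 and 1 genes of the 4 lists were called higher at 3 h, and 2, 5, 9 and 0 at 12 h. Prg4 was 6.31 above sham at 3 h. The slide as a block left 3 genes higher and 11 lower in the first of these 4 lists and 6, 6 and 1 higher in the others, and S100a4, Lrrc15, Chl1 and Slit2 were then not called.

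Of 22 hyaluronan genes 7 rose and 1 fell, with Has2 (3.75), Has1 (3.75) and Tnfaip6 (3.49) ahead. Of 34 bone, cartilage and tendon genes 5 rose and 5 fell, with Alpl at 1.68 and Mepe at -1.83, and Ibsp was among those called though it was above background on no sham or 72 h array. Of 29 lymphocyte genes 2 rose, Gzmb (1.87) and Gzma (1.28). At 3 h, 5 hyaluronan, 3 bone and 1 lymphocyte genes were called higher, and at 12 h 6, 4 and 2. Has1 was 4.51 above sham at 3 h. The slide as a block left 5 hyaluronan genes, 1 bone gene and 0 lymphocyte genes called higher, without Has1 and Alpl, and with Gzmb at 1.79 and Gzma at 0.68 (limma adjusted p = 0.0842 and 0.478). Gzma was also not called without sham replicate 2 (1.18) or 72 h replicate 1 (1.0009). By limma, 0 of 54 cell cycle genes were called at 72 h, with 0 past a 2-fold change at an unadjusted p below 0.05 and 0 by the methods' t-test. Over the union of the lists, 129 genes that were no members rose and 34 fell at 72 h, and 52 and 18 were called with the slide as a block.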

How the data were processed

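Gene expression in cecum tissue was measured on 12 1-colour Agilent arrays in 4 groups of 3, grouped from the sample titles. The authors deposited the scanner output, a linear intensity per spot that Agilent Feature Extraction 11.5.1.1 (per the file headers) had corrected for background, with probe coordinates of mm9 and no normalization between arrays. A deposited table by the authors, with log2 values relative to the 75th percentile and to each row's median, served as an alternative. Here, each array's 75th percentile over non-control spots was subtracted from log2 intensity, flagged outlier spots were left out and spots of 1 probe were averaged. A gene was represented by its brightest probe over the 12 arrays. Group means of the 12 arrays were compared with limma (3.58.1, R 4.3.3), and p-values were adjusted by Benjamini-Hochberg over 56605 probes. Between 60.2% and 65.2% of probes were well above background on an array, and 3 arrays per group limit the precision. A lower bound of a fold change sets, per array, the lowest level well above background in place of a dimmer probe.

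The members, the 16 lists, the 15 marker lists and all tests were chosen with earlier results of these data known, and the grouping by role, the imprinted and the liver lists after values were seen. Genes were named if they were among the 20 members with the largest difference, the members of a list, the members and genes next to a limit, the 5 members lowest at 12 h, up to 3 called genes per list that were no members, genes that check the sex label, or members whose probes disagreed. The text departs from this rule by naming further members under their roles and by leaving out some listed genes. The fit was tested on simulated data. Alternatives were other normalizations, limits, probes and tests, the slide or replicate number as a block, and leaving out each array. Tables were read with Python 3.11.15. Some genes are not reported here.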

Additional observations from a re-analysis of the deposited data

Results flagged for a closer look

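In the pathway lists, 10 genes that were no members had passed the limma threshold in opposite directions at 12 h and at 72 h, with the step between those times called as well. Fkbp7, Pcolce and Rcn3 are collagen-handling genes, and their steps from 12 h to 72 h were 2.69, 2.75 and 2.96. The steps were 3.12 for Lum, 3.60 for Mfap2, 3.23 for Mmp23, 3.27 for Ncam1, 3.03 for Folr2 and 3.94 for Rspo1, all from below sham to above it. Gata4, a transcription factor, read 1.80 above sham at 12 h and -1.24 at 72 h, a step of -3.04, but it was above background on 0 sham and 0 arrays at 72 h. The 12 h and 72 h differences use the same sham arrays. In the limma fit with the slide as a block, the step was called for 10 of the 10 genes (2.59 to 3.60 in size), while the difference from sham at 72 h was called for 0. The explanation was not tested.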

How the results depend on the processing

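The count of 110 genes was 32 with normexp background correction, whose offset of 50 shrinks the differences of dim probes, and 63 when a probe had to be above background on all 12 arrays. It was 236 with a rise of at least 1.5 and 47 with one of at least 2.5. Leaving out 1 array gave 47 (without 72 h replicate 1) to 197 genes (without 72 h replicate 3). Under 8 further settings that kept all arrays it stayed within 1.5 times, and with the second slide's array alone at 12 h it was 100. With normexp the members' median was -0.0195 at 3 h and 1.17 at 72 h, and the members Slc6a2 (-0.0082), Cmya5 (-0.0326) and Gdf6 (-0.0447) turned below sham. The listed gene Ibsp, no member, turned to -0.16. Leaving out 1 array gave medians of -0.55 to -0.36 at 3 h, -0.28 to -0.15 at 12 h and 1.94 to 2.86 at 72 h.

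In limma, 1164 genes were called higher at 3 h, 1466 at 12 h and 1668 at 72 h, and 1604, 1976 and 1632 lower. With normexp, 613, 793 and 834 were higher and 216, 553 and 426 lower. With the slide as a block, 571 and 577 were called at 72 h. Student's paired t-test, named in the paper's general statistics, was also run, with arrays paired by replicate number. With Benjamini-Hochberg adjustment it called 0, 1 and 0 higher and 0, 1 and 0 lower. Without adjustment, at p below 0.05, it called 938, 1280 and 1324 higher and 1276, 1614 and 1320 lower. The paper's array section names no test, so these counts are not the authors' own calls. Since such arrays share no more than a number, a low count here is not read as a lack of differences. Leaving out 1 array gave 1035 to 1253, 1302 to 1513 and 1379 to 1763 higher, and 1134 to 1706, 1560 to 2235 and 1265 to 1814 lower.

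Of the list genes, 129 were higher and 34 lower at 72 h against sham, and 160 and 16 against 12 h. With the slide as a block these were 52, 18, 88 and 6, and with normexp 17 were lower against sham and 105 higher against 12 h. Leaving out 1 array gave 104 to 152, 27 to 35, 135 to 174 and 11 to 19.

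Arrays with the same replicate number did not deviate together (r from -0.40 to 0.26 over 18 pairs), so they share a number and no more. With the replicate block, the 72 h group had 1600 genes called higher and 1562 lower, and the members' median stayed 2.41.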

Other observations

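Some members lay close to each other in the genome (probe starts, mm9). Rab3il1 and Myrf were 190622 bases apart on chromosome 19, Wt1 and Rcn1 213552 on chromosome 2, and C1qtnf6 and Lgals2 327192 on chromosome 15. Adamts12 and Npr3 were 491180 apart on chromosome 15 and Loxl2 and Bmp1 779116 on chromosome 14. How often other sets of genes lie as close was not tested.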
